A study of Mus musculus with 2 samples.

Results

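The mineralization genes analysed here were Runx2, Sp7, Bglap, Phex, Alpl, Enpp1, Phospho1, Smpd3 and Ifitm5, 9 of 24323 named genes on the arrays. They were chosen by name as genes of osteoblasts and odontoblasts, the cells that lay down bone and dentin. On each array they were read by 13 of 59305 non-control spots, 1 spot for each of 13 probes. The arrays carried total RNA of wild-type (WT) mice at P0, the day of birth, with 1 array for tooth and 1 for skin. The labels name no mutant allele and no treatment for either sample. The number of animals behind each sample was not given in the sources used here, and both samples were whole tissue that mixes many cell types. With 1 array per tissue no spread between animals was measured, so the differences carry no test and no p-value, and the number of arrays limits the precision.

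Mineral forms where phosphate is freed beside a collagen matrix while pyrophosphate, which blocks crystal growth, is removed. Runx2 sets the osteoblast fate and Sp7 (osterix) acts downstream of it, and both are needed for bone. Alpl (tissue-nonspecific alkaline phosphatase) breaks down pyrophosphate, Enpp1 makes it, Smpd3 and Phospho1 act in succession to free phosphate from sphingomyelin, Phex is a membrane peptidase whose loss causes X-linked hypophosphatemia, Bglap (osteocalcin) is a calcium-binding matrix protein, and Ifitm5 is a small membrane protein of osteoblasts. In a tooth at birth, odontoblasts are laying down dentin next to the ameloblasts, and bone of the jaw forms around the tooth. Odontoblasts and bone cells share these genes, so RNA from the 2 sources cannot be told apart in a whole tooth sample. Likewise, fewer cells of a type and less RNA per cell cannot be told apart.

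Of the 9 mineralization genes, 5 were at least 2-fold higher in tooth: Phex, Bglap, Ifitm5, Alpl and Sp7. No gene of the 9 was at least 2-fold higher in skin, and Runx2, Smpd3 and Enpp1 lay within 2-fold. Phospho1 did not pass 2-fold either, but skin gave only a limit for it. The same 5 genes also passed a 4-fold threshold, which 6.29% of all genes measured passed toward tooth and 7.41% toward skin. Among all 17409 named genes well above background on at least 1 array, 15.5% were at least 2-fold higher in tooth and 14.2% at least 2-fold higher in skin. The median difference (skin minus tooth, log2 of scaled signal) was -3.87 over the 9 genes and -0.04 over all 17409 genes, whose quartiles were -0.58 and 0.47. A signal is the processed spot brightness, and a scaled signal is that brightness over the 75th percentile of its array.

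All 9 genes were well above background in tooth, and 4 of them (Phex, Ifitm5, Sp7 and Phospho1) were not in skin. Of 16669 named genes well above background in tooth, 8.39% were not well above background in skin. Those 4 genes entered the comparison through tooth alone, which favours a higher value there. For them a bound is given in place of a fold: the tooth signal against the lowest skin signal called well above background (20.8) or the gene's own skin signal, whichever was higher. For Sp7 and Phospho1 the own skin signal was the higher, so their bound equals the observed fold and is not a strict minimum. With such values at their bound, the count of 2-fold genes remained 5 of 9, beside 13.9% of the genes well above background in tooth. Over the 5 genes measured on both arrays, 2 were at least 2-fold higher in tooth, beside 12.3% of all 15271 such genes, and their median was -0.97.

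**Figure D1:**
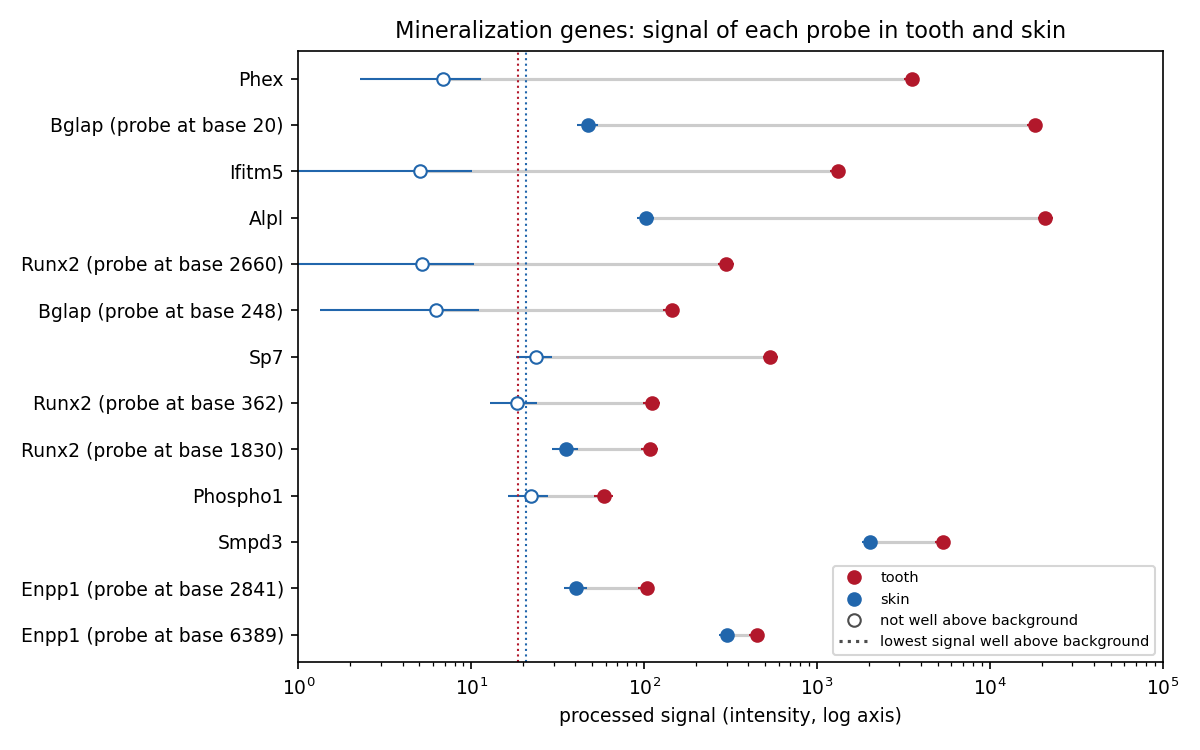
Processed signal (intensity, log axis) of each of the 13 probes for the mineralization genes in tooth (red) and skin (blue). Bars are the scanner software's error and are cut at the axis where they reach it, open circles mark spots not well above background, and dotted lines are the lowest signals so called on each array (18.7 in tooth, 20.8 in skin). Every tooth spot is well above background, and 7 of 13 skin spots are not. Genes with several probes carry the probe's first base in its transcript.

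The transcription factors came first in the order of roles. Runx2 was read by 3 probes along its locus on chromosome 17 (mm9, minus strand), spread over 206 kb and 112 kb from 5′ to 3′. The 5′ probe (chr17:44951128-44951187) and the middle probe (chr17:44744925-44744984) list 2 and 3 RefSeq transcripts in the array's annotation, and the 3′ probe (chr17:44633034-44633093) lists 1 Ensembl transcript and no RefSeq transcript. Exon, intron and UTR under each probe were not analysed here, as no genome of that build was used. The first probe's sequence is shown because it holds, after 12 bases, an ATG (capitals) that opens a frame to its end.

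Runx2 5′ probe: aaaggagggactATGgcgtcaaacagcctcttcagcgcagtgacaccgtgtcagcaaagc
Runx2 middle probe: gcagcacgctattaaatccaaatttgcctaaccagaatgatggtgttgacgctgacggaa

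The middle probe, which had the highest mean log2 signal over both arrays of the Runx2 probes, read 108 ± 11.7 in tooth and 35.4 ± 6.2 in skin, where ± is the error that the scanner software gives for 1 spot. Its scaled difference was -0.97, with an error of 0.30 on the log2 scale from the software's errors, or 1.96-fold toward tooth. The 5′ probe read 111 ± 12.2 in tooth and 18.3 ± 5.6 in skin, not well above background there, which gave a bound of at least 3.45-fold toward tooth. The 3′ probe read 299.6 ± 30.3 in tooth against 5.17 in skin, also not well above background, a bound of at least 9.30-fold. All 3 Runx2 probes were thus higher in tooth, and 2 of them passed 2-fold while the probe that stands for the gene stopped just short of it. By signals that are not logged the 3′ probe would have the highest mean, so this choice decides whether Runx2 passed 2-fold. Which transcripts lie behind the unequal probes was not tested.

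Sp7 was read by 1 probe on chromosome 15 (chr15:102187692-102187751). Its signal was 538 ± 54.1 in tooth and 23.8 ± 5.7 in skin, and the skin spot was not called well above background. The bound for Sp7 was 14.6-fold toward tooth, taken from its own skin signal, so it leaves out the error of that spot. This bound was number 67 in size among the 1398 genes well above background in tooth only.

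Bglap gave one of the largest differences of the 9 genes. Its brighter probe (chr3:88188307-88188366) read 18298 ± 1830 in tooth and 47.3 ± 6.6 in skin, well above background on both arrays. The difference was -7.96 with an error of 0.25, or 249-fold, which ranked 2 of 15271 toward tooth. A fainter probe lies 515 bases further along the gene (chr3:88187792-88187851) and lists 1 RefSeq transcript. It read 144 ± 15.1 in tooth and 6.21 in skin, not well above background, for a bound of at least 4.48-fold. Both Bglap probes were higher in tooth, by very different amounts in signal.

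Mouse has near-identical osteocalcin copies side by side, and the files do not say how far the Bglap probe also binds a neighbouring copy such as Bglap2. The sequences of both probes are shown so that they can be compared. In the Bglap probe the capitals mark an ATG that opens a frame after 29 bases, and the Bglap2 probe (chr3:88181822-88181881) holds no such ATG.

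Bglap probe: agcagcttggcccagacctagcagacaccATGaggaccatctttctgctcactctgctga
Bglap2 probe: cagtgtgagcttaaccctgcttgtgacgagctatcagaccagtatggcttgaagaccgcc

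The probes cover different stretches, with at most 47.8% the same bases in any ungapped overlap of 20 bases or more. Bglap2 was well above background on both arrays and differed by -7.41, close to the -7.96 of Bglap. How much of the Bglap signal comes from its copies was not tested, so the share of each copy is uncertain.

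Phex was read by 1 probe on chromosome X (chrX:153596731-153596790). It read 3555 ± 356 in tooth and 6.86 in skin, which was not well above background. Phex was at least 110.3-fold higher in tooth, number 12 in size among the 1398 bounds. Ifitm5, on chromosome 7 (chr7:148135949-148136008), read 1321 ± 132 in tooth. Its skin signal of 5.06 was a value that the software set in place of a signal too close to background. The bound for Ifitm5 was at least 41.0-fold, number 29 of 1398. Phex in skin was called positive and significant but not well above background, and Ifitm5 in skin was called neither.

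Of the enzymes beside Phex, Alpl alone passed 2-fold. Its probe (chr4:137297658-137297716) read 21002 ± 2100 in tooth and 103 ± 11.5 in skin, well above background on both arrays. The difference was -7.04 with an error of 0.22, or 132-fold, and ranked 9 of 15271 toward tooth. So RNA for the enzyme that removes pyrophosphate was far higher in tooth, while skin still held a measurable signal. Protein and enzyme activity were not measured.

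Enpp1, the enzyme that makes pyrophosphate, was read by 2 probes 3492 bases apart on chromosome 10. The brighter one (chr10:24358048-24358107) read 451 ± 45.3 in tooth and 301 ± 30.5 in skin, and after scaling the difference was 0.05 with an error of 0.21. The fainter one (chr10:24361540-24361599), which lists a RefSeq transcript, read 103 ± 11.1 in tooth and 40.4 ± 6.1 in skin. Its difference was -0.72 with an error of 0.27, or 1.65-fold toward tooth. Neither Enpp1 probe reached 2-fold, and they disagreed in sign. The Enpp1 difference ranked 8343 of 15271 toward tooth.

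Neither of the enzymes that free phosphate from sphingomyelin passed 2-fold. Smpd3 (chr8:108776790-108776849) was clearly above background on both arrays, with 5330 ± 533 in tooth and 2019 ± 202 in skin. Its difference was -0.77 with an error of 0.20, or 1.70-fold toward tooth, and ranked 2538 of 15271. Phospho1 (chr11:95692092-95692151, plus strand) read 58.6 ± 7.6 in tooth and 22.1 ± 5.8 in skin, not well above background in skin. Its bound was 1.71-fold toward tooth, number 500 of the 1398 bounds. That bound is the ratio to its own skin signal and leaves out the error of that spot. The true fold of Phospho1 may therefore lie below or above 1.71.

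**Figure D2:**
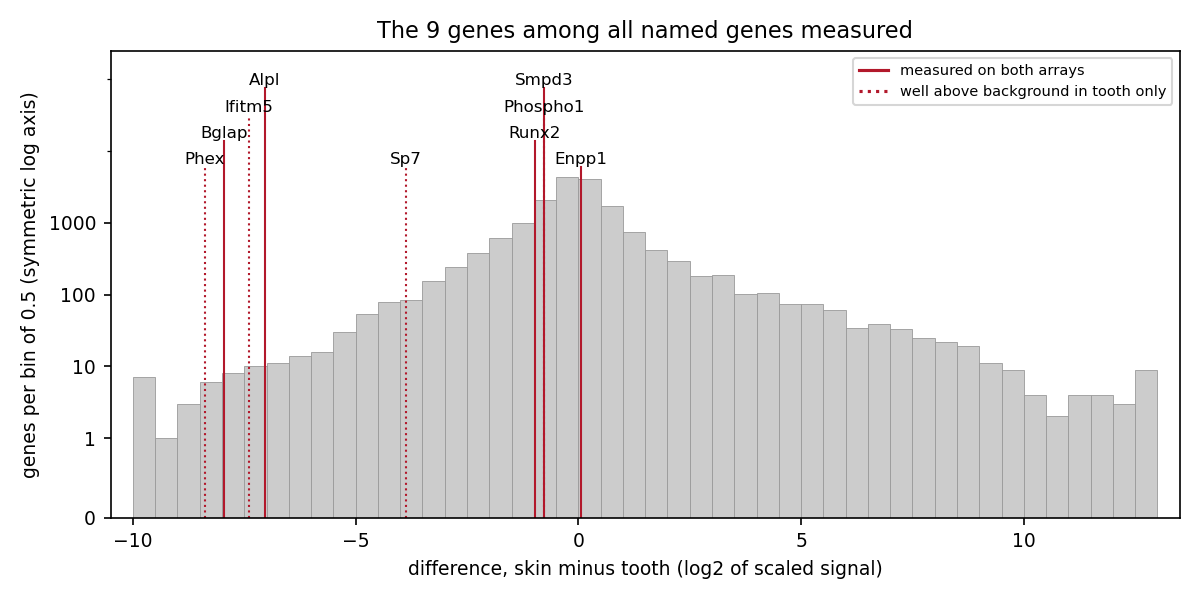
Differences (skin minus tooth, log2 of scaled signal) of the 9 mineralization genes, as red lines, over a histogram of the 17409 named genes measured, in bins of 0.5 with a symmetric log count axis. The outermost bars also hold all more extreme genes. Phex, Bglap, Ifitm5 and Alpl lie in the thin left tail, Sp7 between -4 and -3.5, and the plotted values of Runx2, Phospho1, Smpd3 and Enpp1 within 1 of zero; dotted lines are genes well above background in tooth only.

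How the arrays were scaled mattered for the genes near 2-fold. Scaling on the spike-in RNAs moved the median of all genes by -0.62 toward tooth, a median shift moved it by -0.25, and no scaling moved it by -0.63. With spike-in scaling 32.4% of all genes were at least 2-fold higher in tooth and 9.04% in skin, and with the median shift these shares were 20.1% and 11.6%. Under each of these 3 settings 8 of the 9 mineralization genes passed 2-fold, Runx2, Phospho1 and Smpd3 included, and Enpp1 did not. The Enpp1 difference changed sign under each, to -0.57, -0.20 and -0.58. Phospho1 changed sign under the normexp background correction, to 0.04, which adds 50 to every signal and so draws faint signals together.

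The 5 genes past 2-fold kept their direction and stayed past 2-fold in every alternative that gave them a value. Across the alternatives Phex ranged from -9.02 to -5.20, Bglap from -8.59 to -5.93, Ifitm5 from -8.03 to -3.68, Alpl from -7.67 to -6.36 and Sp7 from -4.50 to -2.17. Runx2 ranged from -2.72 to -0.96 and passed 2-fold in 7 of 13 alternatives, among them the mean of its 3 probes. With the normexp correction its value of -1.76 came from the 3′ probe, which then had the highest mean, whereas the middle probe gave -0.18. Smpd3 ranged from -1.40 to -0.75 and passed in 3 of 13. Phospho1 ranged from -1.41 to 0.04 and passed in 4 of 12. Enpp1 ranged from -0.58 to 0.07 and passed in none.

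**Figure D3:**
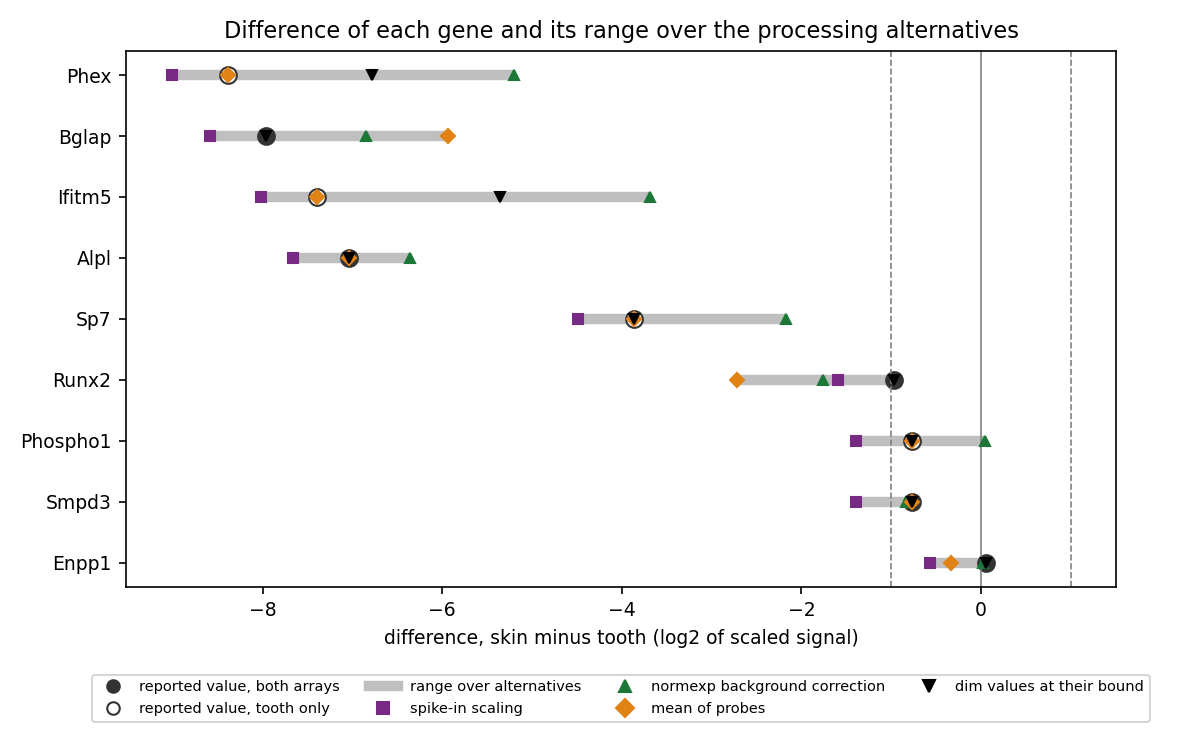
Difference of each mineralization gene (skin minus tooth, log2 of scaled signal) as reported (circles, open for genes measured in tooth only) and its range over the processing alternatives (grey bars). Dashed lines mark 2-fold and coloured symbols mark 4 alternatives. Alpl, Bglap, Phex, Ifitm5 and Sp7 stay left of the 2-fold line over their whole range, while the bar of Enpp1 spans zero.

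The start sites of the 9 genes were searched for short motifs of factors known in bone. Promoter sequence for 7 of the 9 genes was found in RefSeq (GRCm38.p6, a build other than that of the probes), with 2 windows for Alpl, and Sp7 and Smpd3 had no entry. In the 250 bases before each start, the letters ACCACA or their reverse TGTGGT, which Runx factors are known to bind, occurred for Bglap, Enpp1 and Runx2, 3 of 7 genes. They occurred in 14.045% of all 32851 windows. The letters were present both for Bglap, among the genes with the largest differences, and for Enpp1, with the smallest. These 3 windows are shown with the match in capitals.

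Bglap, chr3:88384467-88384716, minus strand: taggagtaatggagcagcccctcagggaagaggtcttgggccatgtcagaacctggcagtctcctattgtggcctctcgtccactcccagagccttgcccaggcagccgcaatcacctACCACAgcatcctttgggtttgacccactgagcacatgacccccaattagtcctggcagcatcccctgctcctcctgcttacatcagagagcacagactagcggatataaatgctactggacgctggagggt
Runx2, chr17:44814628-44814877, minus strand: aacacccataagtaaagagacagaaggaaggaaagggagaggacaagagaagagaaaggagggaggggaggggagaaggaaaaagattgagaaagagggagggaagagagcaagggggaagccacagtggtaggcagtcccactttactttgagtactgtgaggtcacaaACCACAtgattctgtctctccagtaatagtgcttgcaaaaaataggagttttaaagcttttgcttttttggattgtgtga
Enpp1, chr10:24712160-24712409, minus strand: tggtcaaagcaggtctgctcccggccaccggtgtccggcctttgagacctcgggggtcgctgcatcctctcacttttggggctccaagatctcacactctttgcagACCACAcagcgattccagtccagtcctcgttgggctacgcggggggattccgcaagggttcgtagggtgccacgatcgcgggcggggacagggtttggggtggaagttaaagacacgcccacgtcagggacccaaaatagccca

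The match lay 132 bases before the start in Bglap, 80 in Runx2 and 144 in Enpp1. GGGCGG or CCGCCC, the letters of a GC box that Sp factors are known to bind, occurred for Alpl, Enpp1, Ifitm5 and Phospho1, beside 32.7% of all windows. TATAAA or TTTATA occurred for Alpl and Bglap, beside 12.4% of all windows. TAATTA, known from homeodomain factors such as those of the Dlx and Msx families, occurred for none of the 7 genes and in 4.84% of all windows. None of the 4 motifs holds another. A match is a run of letters and not a bound site, and no binding was measured.

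Other factors of the osteoblast program were divided between the tissues. Of 18 osteogenic transcription factors and cofactors, 6 were at least 2-fold higher in tooth and 1 in skin, with a list median of 0.16. Over all genes measured the shares were 15.5% toward tooth and 14.2% toward skin. The homeodomain factors Dlx5, Msx2, Msx1 and Dlx6 differed by -3.15, -2.40, -2.01 and -1.81. Zfp521, a zinc finger factor, differed by -2.76. Fosl1, a member of the AP-1 family, was at least 3.50-fold higher in skin. The probes that stand for the Runx relatives Runx1 and Runx3 gave 0.58 and 0.57, which turned to -0.04 and -0.05 with spike-in scaling. Another probe of each gene, not dim in either tissue, had the opposite sign with the 75th percentile scaling. Its value was -0.85 for Runx1 and -0.91 for Runx3. The direction of Runx1 and Runx3 thus depended on the probe as well as on the scaling. Cbfb, their shared partner, differed by -0.39.

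The bone and dentin matrix genes, in which Bglap acts, were mostly higher in tooth. Of 13 genes, 11 were at least 2-fold higher in tooth and none in skin, beside 15.5% and 14.2% of all genes. The list median was -3.17. Ibsp (bone sialoprotein) differed by -7.43, and the collagen chains Col1a1 and Col1a2 by -3.17 and -2.50. The bounds for Omd (osteomodulin) and Spp1 (osteopontin) were at least 143-fold and at least 55.0-fold toward tooth. The 2 genes within 2-fold were Mepe, at -0.98, and Col5a2, at -0.93.

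In phosphate and pyrophosphate handling, the pathway of Alpl, Enpp1, Phospho1 and Phex, the picture was mixed. Of 11 genes measured, 3 were at least 2-fold higher in tooth and 1 in skin, beside 15.5% and 14.2% of all genes. The list median was -0.21. The secretory-pathway kinase Fam20c and its partner Fam20a differed by -3.49 and -4.18, and the phosphate transporter Slc20a2 by -2.98. Vdr, the vitamin D receptor, was higher in skin, at 1.24, but no gene of the list passed 2-fold toward skin with the median shift, spike-in scaling or no scaling. Ank, which carries pyrophosphate out of the cell, differed by 0.11, close to the value of Enpp1, and by -0.51 with spike-in scaling. Abcc6 and Kl were well above background on neither array.

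Inhibitors of mineralization were present in tooth too. Of 8 measured, 5 were at least 2-fold higher in tooth and none in skin, with a list median of -2.003. Mgp (matrix Gla protein) differed by -2.39, Fetub (fetuin B) by -3.41 and Dkk1, an inhibitor of Wnt signals, by -4.82. With dim values at their bound the count was 4 and the median -1.17, because the tooth signal of Sost lay below the lowest skin signal called well above background, so no fold is given for it. Of 8 osteocyte genes, Phex included, 6 were at least 2-fold higher in tooth, 5 with dim values at their bound, and none in skin. Fbln7 differed by -4.65 and Pdpn (podoplanin), an early osteocyte marker, by -2.29. Fgf23, the phosphate hormone, differed by 0.08, or -0.54 with spike-in scaling. Its scaled signal was bright in both tissues, 4.89 in tooth and 4.97 in skin on the log2 scale. Whether that probe reads Fgf23 alone was not tested. Of 13 signals and receptors, 2 were at least 2-fold higher in tooth, Wnt10a at -1.89 and Fgfr1 at -1.85, and 1 in skin, Wnt10b at 2.70. The count toward tooth was near the share over all genes, 15.5%. With spike-in scaling it was 5 of 13, beside 32.4% of all genes. The median of the 13 genes was 0.04.

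**Figure D4:**
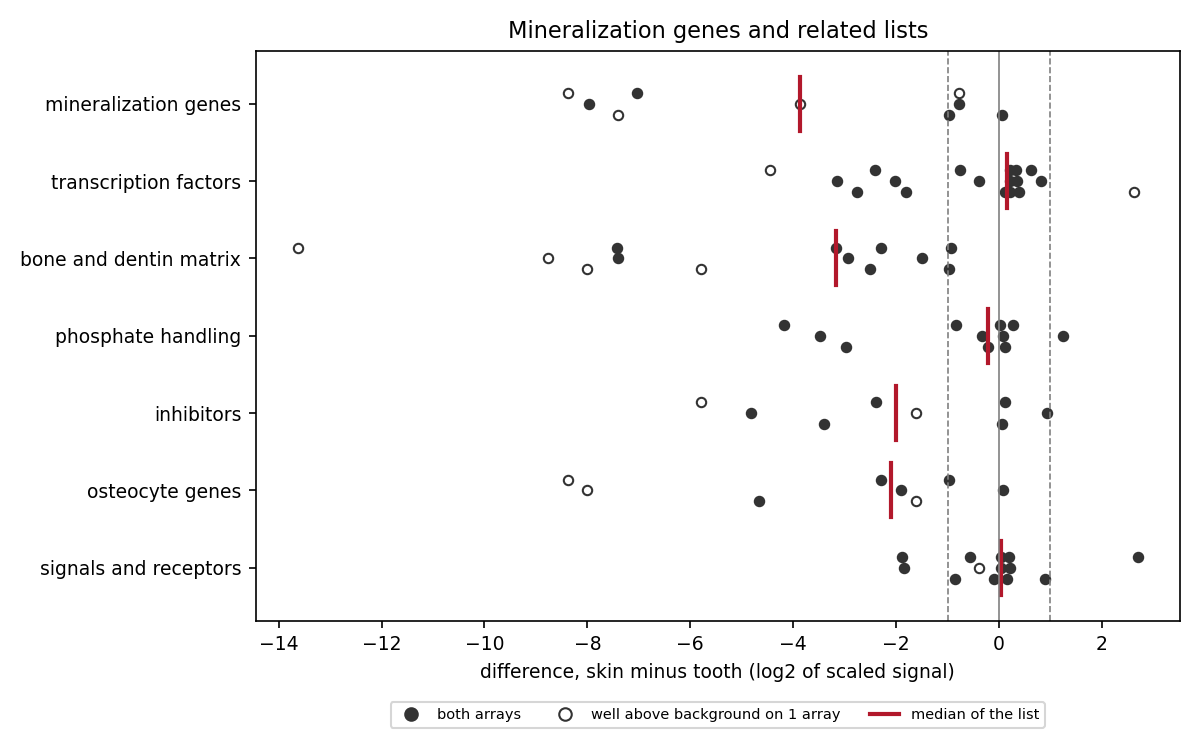
Difference (skin minus tooth, log2 of scaled signal) of each measured gene of the mineralization genes and of 6 related lists, 1 circle per gene, with the median of each list as a red bar and dashed lines at 2-fold. Open circles are genes well above background on 1 array. The matrix list (median -3.17) and the mineralization genes (-3.87) lie left of the transcription factors (0.16), phosphate handling (-0.21) and signals (0.04).

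Relatives of the 9 genes were compared to see how far a difference was shared within a family. Over 34 measured relatives, 16 were at least 2-fold higher in tooth and 2 in skin, beside 15.5% and 14.2% of all genes. Their median was -0.88. With dim values at their bound 13 were higher in tooth, beside 13.3% of all genes, and the median was -0.31. With the normexp correction 9 were, beside 9.60% of all genes. In the Sp family of zinc finger factors, Sp6, a factor of dental epithelium, differed by -3.33 and Sp5 by 3.83, so Sp6 lay on the side of Sp7 and Sp5 on the other. In the peptidase family of Phex, Mme (neprilysin) and Ecel1 differed by -4.17 and -3.33, and Mmel1 by 1.998. The other alkaline phosphatases were faint. Alppl2 was at least 2.97-fold higher in tooth, Akp3 was called well above background in tooth only but too faint for a bound, and Alpi was well above background on neither array.

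The family of Enpp1 differed from Enpp1 itself. Enpp2 (autotaxin), Enpp4 and Enpp5 differed by -2.90, -2.94 and -2.71. The bound for Enpp3 was 3.70-fold toward tooth, taken from its own skin signal. Enpp6 was at least 1.26-fold higher, so 4 of the 5 relatives passed 2-fold with dim values at their bound, while Enpp1 lay at 0.05. In the family of Ifitm5, Ifitm1 differed by -1.13, Ifitm3 by -0.82, Ifitm2 by -0.30 and Ifitm7 by 0.42, or -0.21 with spike-in scaling. For Ifitm6 the bound was at least 2.15-fold toward tooth, and Ifitm10 was well above background on neither array. The sphingomyelinases Smpd1, Smpd2 and Smpd4 differed by 0.86, 0.39 and 0.05, and Phospho2 by 0.05. With spike-in scaling Smpd2, Smpd4 and Phospho2 turned to -0.23, -0.57 and -0.58.

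**Figure D5:**
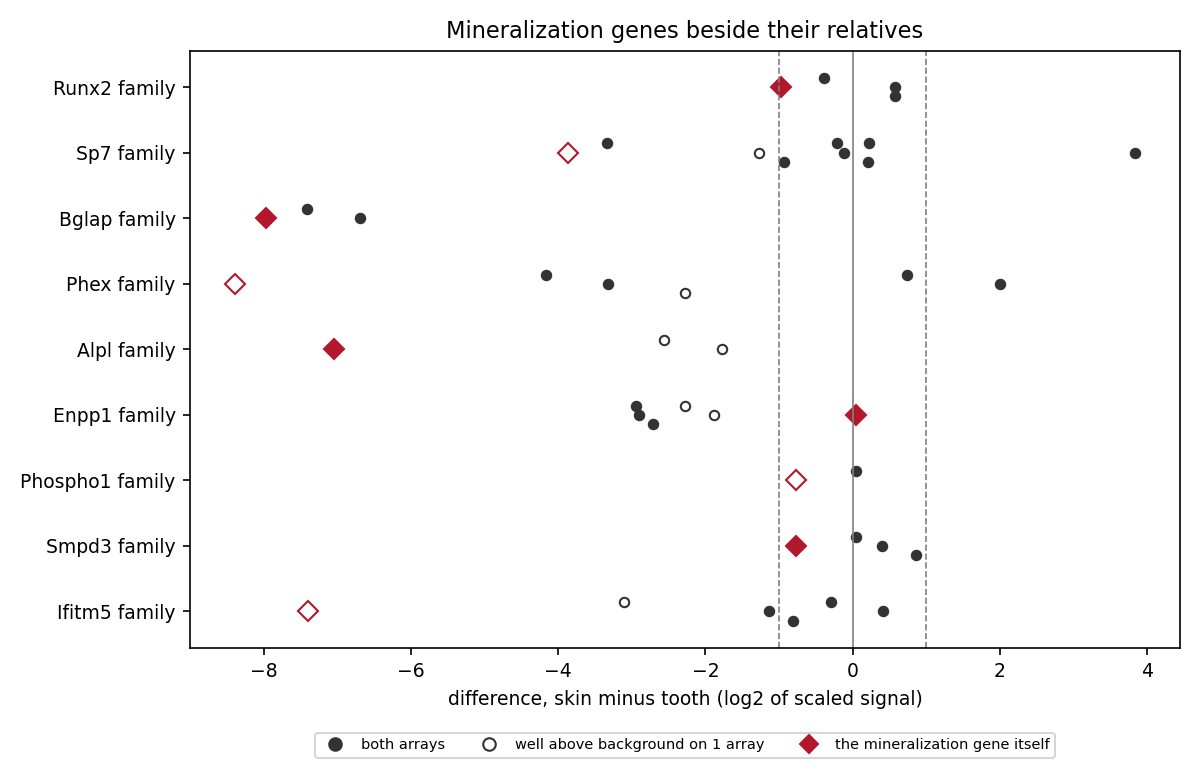
Difference (skin minus tooth, log2 of scaled signal) of each mineralization gene (red diamond) and its measured relatives (circles), with dashed lines at 2-fold; open symbols are genes well above background on 1 array. Enpp1 lies at 0.05, right of its 5 relatives, and Ifitm5, Phex and Alpl lie left of theirs.

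Markers of some other cells were higher in tooth as well, and others were divided or higher in skin. Over all genes measured, 15.5% were at least 2-fold higher in tooth and 14.2% in skin. Both odontoblast markers, Dspp and Dmp1, were not well above background in skin, with bounds of at least 3087-fold and at least 63.9-fold toward tooth. Both also stand in the bone and dentin matrix list, and Dmp1 among the osteocyte genes, so these counts share genes. All 6 osteoclast markers, among them Acp5 at -3.88 and Ctsk at -4.89, were at least 2-fold higher in tooth, 5 with dim values at their bound. Their summed scaled signals were 302 in tooth and 18.1 in skin. Osteoclasts resorb bone, and 4 of the 6 markers were well above background on both arrays. All 5 ameloblast markers were at least 2-fold higher in tooth. Of the cartilage markers, Col2a1 was at least 43.3-fold higher in tooth, Acan differed by -1.36 and Col9a1 by 0.70, and Col10a1 and Matn1 were well above background on neither array. All 5 epidermis and all 6 muscle markers were at least 2-fold higher in skin, with summed scaled signals of 3760 against 6.002 and 88.3 against 8.79. Dermal fibroblast markers were divided, with 1 of 5 at least 2-fold higher in tooth, Lum at -2.97, and 1 in skin, Dpt, at least 18.7-fold. Of 5 dental mesenchyme markers, 4 were at least 2-fold higher in tooth, and Lhx6 differed by 0.09, or -0.53 with spike-in scaling. The part of each cell type in the differences of the 9 genes was not tested.

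Over all probes, 56.7% were well above background in tooth and 52.5% in skin, no spot was saturated, and 0 and 1 of 308 negative controls were called well above background. Probes spotted many times on 1 array gave a technical error of 0.12 for a difference on the log2 scale, which covers neither labelling nor animals.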

How the data were processed

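Total RNA of WT tooth and skin was labelled with Cy3 and hybridised to 1-colour Agilent 8x60K mouse arrays, 1 per tissue. Groups follow the labels, which give P0, whereas the study's methods give P1. The authors scanned the arrays, and per the file headers Feature Extraction 10.7.3.1 made the deposited intensity values, background-subtracted processed signals. The authors also deposited a value table, whose values match a ratio of each processed signal to one array-wide factor (430.7 in tooth, 274.5 in skin), used as an alternative.

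Outlier spots (137 and 146) and controls were left out, log2 signals were reduced by each array's 75th percentile, and each gene was read from its brightest probe by the mean log2 signal of both arrays. A gene counted as measured where either array called that probe well above background. Calls used a 2-fold threshold with no test. The members and lists were chosen with earlier results of these data known. All 9 members are named; of other lists, the largest difference and bound each way and up to 4 more. Mepe, Col5a2, Abcc6 and Kl were named after their values were seen. RefSeq names matched 82.1% of named probes; 1 listed name, Klotho, is on the array as Kl. Some items that the counts include are not reported here by name. The procedure was tested on simulated data. Python 3.11.15, numpy 2.4.6, pandas 2.3.3, matplotlib 3.10.9, R 4.3.3 and limma 3.58.1 (normexp, offset 50) were used. Alternatives covered scaling, background correction, dim values, detection call, several probes per gene, the deposited table and a 4-fold threshold.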

Additional observations from a re-analysis of the deposited data

How the results depend on the processing

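The count of the 9 genes at least 2-fold higher in tooth, 5, became 8 with the median shift, 8 with spike-in scaling, 8 with no scaling and 2 with genes measured on both arrays only, where 5 genes were left. It was 7 with quantile normalization and 6 with the normexp correction (where the sixth gene, Runx2, changed its probe as well), with the mean of probes and with the median difference of probes, and 5 under every other alternative. The share of all genes at least 2-fold higher in tooth was 20.1% with the median shift, 32.4% with spike-in scaling, 32.7% with no scaling, 16.7% with quantile normalization, 9.60% with normexp, 14.5% with the mean of probes and 14.6% with their median difference. No gene of the 9 was at least 2-fold higher in skin under any alternative. The median difference, -3.87, became -4.12 with the median shift, -4.00 with quantile normalization, -4.49 with spike-in scaling, -4.50 with no scaling, -2.17 with the normexp correction and -0.97 with genes measured on both arrays only, the last by leaving out Phex, Ifitm5, Sp7 and Phospho1. The cause of the other changes was not tested, beyond the shift that each scaling gives to all genes. Signals near background limit Phospho1, Sp7 and the 5′ Runx2 probe in skin. No replicate could be left out, and no paired analysis was possible because each tissue has 1 array.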
